A study of Mus musculus with 6 samples.

Results

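Bone morphogenetic protein (BMP) signalling was followed through 10 genes in mouse gonadal primordium epithelium at E10.5 of embryonic development, with fetuses lacking the homeobox gene Emx2 set against wild-type fetuses. The genes were the receptors Bmpr1a, Bmpr1b, Bmpr2 and Acvr1, the Id genes Id1, Id2, Id3 and Id4, and the inhibitory Smads Smad6 and Smad7. They were chosen by name, and every probe set annotated to exactly 1 of these symbols was taken, which gave 26 probe sets of the 45037 on the array that are not controls (10 of 18193 named genes). The samples were 3 Emx2 KO pools (-/-) and 3 wild-type pools (+/+), each mixed from 3 fetuses and hybridised to 1 array. The epithelium was cut by laser microdissection from frozen sections stained with hematoxylin, some sections being stained for GATA4 to find the primordium, and its RNA went through 2 rounds of amplification before biotin labelling. The labels give neither strain, sex and litter nor the design of the Emx2 allele, and a pool can still hold neighbouring cells caught in the section.

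BMP ligands bind a complex of type I receptors, such as Bmpr1a, Bmpr1b and Acvr1, and type II receptors, such as Bmpr2. The type II receptor phosphorylates the type I receptor, which phosphorylates Smad1, Smad5 and Smad9; these enter the nucleus with Smad4 and switch on, among others, the Id genes and the inhibitory Smads. Id proteins dimerise with basic helix-loop-helix factors and keep them off DNA, while Smad6 and Smad7 act back on the receptors and dampen the signal. In the urogenital region BMP signals are known to act on the nephric duct and ureter and on germ cells.

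Of the 26 probe sets, 21 were bright enough to be tested and covered all 10 genes. Of these 21, 3 were called higher in Emx2 KO (14.3%, against 4.68% of all tested probe sets called in either direction) and 0 lower in limma's test. Over all tested probe sets, 2.75% were called higher and 1.93% lower. Of the 21, 9 were higher and 1 was lower at an unadjusted p below 0.05, beside 2664 higher and 2012 lower of all 27022 tested. The called probe sets were 1 of 3 probe sets of Id2, the only probe set of Smad6 and 1 of 5 tested probe sets of Bmpr1a. The median log2 fold change over all 26 probe sets, tested or not, was 0.21, beside 0.00 over all 45037. Probe sets of a gene may read the same or different transcripts of it and are not independent. In such pools fewer cells of a type and less RNA per cell cannot be told apart. A log2 fold change is given throughout as Emx2 KO minus wild-type, and a probe set is called where limma's p-value, adjusted with the Benjamini-Hochberg method over all 27022 tested probe sets, is below 0.05.

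Several facts of the whole series bear on every comparison. In the whole series 1264 of 27022 probe sets were called, 742 higher and 522 lower. The single Emx2 probe set read 1678, 1480 and 1746 in KO and 1302, 2120 and 1727 in wild-type pools (log2 fold change −0.05, adjusted p = 0.916), and since its position relative to the deleted part is not known here, it does not check the labels. Xist was at 9321 to 9888 in KO and 13.3 to 69.9 in wild-type pools, and all 3 Y-linked genes tested were called lower in KO. Eif2s3y was at 99.8 to 226 in KO and 709 to 813 in wild-type pools, Kdm5d at 58.9 to 106 in KO and 293 to 412 in wild-type pools, and Uty at 47.9 to 57.8 in KO and 208 to 261 in wild-type pools. The pools therefore differed in fetal sex markers exactly as in genotype, and the 2 cannot be told apart; none of the 10 genes lies on X or Y in the RefSeq table. Of 10 markers of the coelomic epithelium 9 were bright enough to test, and Msln was too dim. Of the 9, 4 were called higher in KO, namely Upk1b (log2 fold change 1.44), Krt19 (1.02), Lrrn4 (0.72) and Bnc1 (0.49). Of the rest, 1 was called lower (Krt8, −0.59) and 4 were not called. Among these 4, Wt1 read 1658 to 2251 in KO and 2484 to 2756 in wild-type pools. Gata4 was higher in every KO pool, at 406 to 427 in KO and 229 to 344 in wild-type pools (0.62, limma adjusted p = 0.0501). At Upk3b and Krt18 the groups overlapped. The summed intensity of the 10 markers was 12844 to 14223 in KO and 12859 to 13211 in wild-type pools.

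Upstream sequences are shown for Id2, Smad6 and Bmpr1a, which each had a called probe set, and for Id3, whose difference did not pass, because these genes differ in the short GC-rich words that BMP Smads are known to bind. Each runs 5′ to 3′ over the 250 bases before the start of the gene in RefSeq (GRCm38.p6), and capitals mark GGCGCC and GGAGCC on either strand (GGCTCC is GGAGCC on the opposite strand). The windows are chr12:25096093-25096342 (minus strand) for Id2, chr9:64022060-64022309 (minus) for Smad6, chr14:34502547-34502796 (minus) for Bmpr1a and chr4:136143572-136143821 (plus) for Id3.
Id2: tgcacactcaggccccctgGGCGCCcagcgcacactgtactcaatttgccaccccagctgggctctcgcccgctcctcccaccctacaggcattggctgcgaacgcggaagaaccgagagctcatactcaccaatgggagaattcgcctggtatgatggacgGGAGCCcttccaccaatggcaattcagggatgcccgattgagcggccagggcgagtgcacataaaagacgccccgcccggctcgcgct
Smad6: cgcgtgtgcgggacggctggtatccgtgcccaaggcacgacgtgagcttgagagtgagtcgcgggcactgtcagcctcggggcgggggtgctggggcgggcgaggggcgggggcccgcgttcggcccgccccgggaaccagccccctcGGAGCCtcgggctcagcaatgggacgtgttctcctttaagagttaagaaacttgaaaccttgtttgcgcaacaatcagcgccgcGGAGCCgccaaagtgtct
Bmpr1a: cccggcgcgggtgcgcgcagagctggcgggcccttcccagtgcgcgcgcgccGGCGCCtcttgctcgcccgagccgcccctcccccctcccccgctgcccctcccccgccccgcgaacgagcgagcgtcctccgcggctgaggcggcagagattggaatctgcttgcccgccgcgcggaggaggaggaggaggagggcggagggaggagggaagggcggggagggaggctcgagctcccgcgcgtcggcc
Id3: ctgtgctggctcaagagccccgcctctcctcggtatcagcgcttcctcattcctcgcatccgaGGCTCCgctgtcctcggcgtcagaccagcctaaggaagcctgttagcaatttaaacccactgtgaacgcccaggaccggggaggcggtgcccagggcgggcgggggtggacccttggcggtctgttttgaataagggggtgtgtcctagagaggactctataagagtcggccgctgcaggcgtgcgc

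Upstream windows were found in the RefSeq table for 8 of the 10 genes, and 4 of those 8 held GGCGCC in at least 1 window, namely Id2, Id4, Bmpr1a and Bmpr2, while those of Smad6, Id3, Acvr1 and Bmpr1b held no such word. GGCGCC stood in 9.59% of all 32851 windows of that length. Shares of all windows are per window here, while a gene is counted if any of its windows matches, so they are not like measures. GGAGCC stood in windows of 6 of the 8 genes and in 26% of all windows, with 2 matches each in Smad6 and Acvr1, at least 1 each in Id2, Id3, Id4 and Bmpr1b, and 0 in Bmpr1a and Bmpr2. CAGAC, the core word bound by Smads and searched on both strands as well, was in windows of 2 of the 8 genes, Bmpr1b and Id3, and in 42.2% of all windows. The printed windows had GC contents of 62.8% (Id2), 66.8% (Smad6), 78.8% (Bmpr1a) and 62.8% (Id3), above the 52.4% median of all windows. A match describes the letters only, and motif content was not tested against the fold changes. GC content was not allowed for in these counts.

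**Figure D1:**
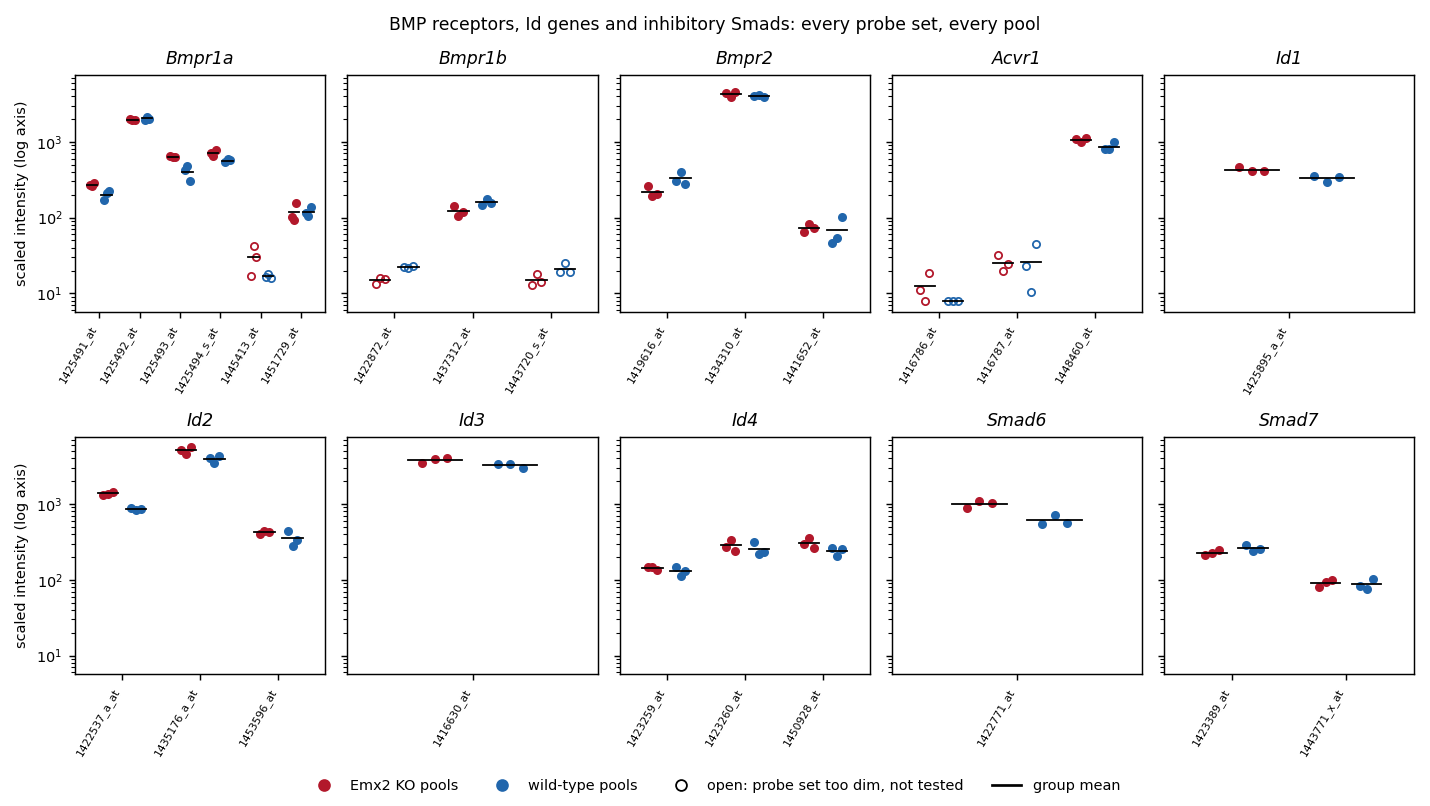
Scaled intensity (log axis) of all 26 probe sets in each of the 6 pools, Emx2 KO in red at the left of each pair and wild-type in blue; bars are group means, open points are the 5 probe sets too dim to be tested, and values under the floor of 7.99 are drawn at it. The Id2 probe set 1422537_a_at, Smad6 and the Bmpr1a probe set 1425493_at show KO pools above wild-type pools, while the brightest probe sets of Bmpr1a and Bmpr2 overlap.

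Among the type I receptors, Bmpr1a gave different answers by probe set, although its 5 tested probe sets were annotated to the same target sequence. The probe set 1425493_at read 652, 627 and 621 in the KO pools and 422, 479 and 305 in the wild-type pools (scaled intensity; log2 fold change 0.68, SE 0.16, adjusted p = 0.0284). All KO pools lay above all wild-type pools, and the wild-type pools were the more scattered. The brightest Bmpr1a probe set, 1425492_at, read 1963, 1910 and 1926 in KO and 1958, 2145 and 2017 in wild-type pools. Its groups overlapped, and its log2 fold change of −0.08 had a 95% interval of −0.27 to 0.12 (adjusted p = 0.733), which leaves out a change of the size seen at 1425493_at.

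The other tested Bmpr1a probe sets had log2 fold changes between these. At 1425491_at the KO mean was 272 ± 12.4 and the wild-type mean 201 ± 28.2 (SD, n = 3 each; log2 fold change 0.45, SE 0.16, limma adjusted p = 0.160). At 1425494_s_at, whose suffix marks probes that can also read other transcripts, the means were 712 ± 73.7 in KO and 564 ± 24.4 in wild-type pools (0.33, SE 0.12, limma adjusted p = 0.175). Neither was called, although the groups did not overlap at either. A dimmer probe set, 1451729_at, gave 117 ± 35.0 in KO and 120 ± 15.2 in wild-type pools (−0.06, with a 95% interval of −0.56 to 0.43; limma adjusted p = 0.927). Within an array, the log2 ratio of 1425493_at to 1425492_at was −1.63 to −1.59 in KO and −2.72 to −2.16 in wild-type pools, which do not overlap. Its ratios to the other tested Bmpr1a probe sets overlapped between the groups, at 1.12 to 1.27 in KO and 0.45 to 1.32 in wild-type pools against 1425491_at, −0.35 to −0.04 in KO and −0.90 to −0.29 in wild-type pools against 1425494_s_at, and 1.98 to 2.76 in KO and 1.16 to 2.17 in wild-type pools against 1451729_at. None of these ratios was tested. The sixth Bmpr1a probe set, 1445413_at, was too dim to test, at 16.8, 42.3 and 30.5 in KO and 16.7, 18.1 and 16.004 in wild-type pools, and its groups overlapped. The call at 1425493_at was lost without wild-type replicate 1 or 3 or any 1 of the KO replicates (adjusted p between 0.0537 and 0.0968).

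Acvr1, the type I receptor also known as ALK2, was read by 1 bright probe set, 1448460_at, at 1090, 980 and 1116 in KO and 797, 806 and 978 in wild-type pools. The lowest KO pool lay just above the highest wild-type pool, and the difference was not called (log2 fold change 0.31, SE 0.12, 95% interval 0.05 to 0.57, adjusted p = 0.196). Of its other probe sets, 1416786_at was at the floor in all wild-type pools, and 1416787_at read 19.8 to 32.1 in KO and 10.3 to 45.4 in wild-type pools; both were too dim to test.

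Bmpr1b, the type I receptor best known from cartilage and ovary, was too dim to test at 2 of its 3 probe sets. Its only tested probe set, 1437312_at, read 141, 103 and 119 in KO and 147, 176 and 157 in wild-type pools. Every KO pool was below every wild-type pool, but the difference was not called (log2 fold change −0.41, SE 0.19, 95% interval −0.82 to 0.00, adjusted p = 0.291). Both untested Bmpr1b probe sets also read lower in every KO pool: 1422872_at gave 13.2 to 16.02 in KO and 21.3 to 22.8 in wild-type pools, and 1443720_s_at gave 12.9 to 17.97 in KO and 18.9 to 25.4 in wild-type pools. These levels are under the dim limit of 26.4, the mean intensity below which probe sets were left out, and they carry no test.

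Bmpr2, the type II receptor most specific to BMP ligands, showed no call at any of its 3 probe sets. The brightest, 1434310_at, read 4326, 3881 and 4566 in KO and 3994, 4093 and 3830 in wild-type pools. These groups overlapped, and the log2 fold change was 0.10 (SE 0.08, 95% interval −0.09 to 0.28, adjusted p = 0.626). The probe set 1419616_at was lower in every KO pool, with 260, 193 and 204 in KO and 302, 404 and 277 in wild-type pools (−0.57, SE 0.18, 95% interval −0.97 to −0.18, adjusted p = 0.108). There the groups did not overlap, and its interval does not meet that of 1434310_at, but neither probe set was called and their difference was not tested. The third, 1441652_at, read 65.1 to 82.2 in KO and 46.8 to 103 in wild-type pools (adjusted p = 0.816). The log2 ratio of the 3′ to the 5′ control probe sets, a measure of how far amplified RNA is shortened, was 1.86 to 2.05 in KO and 1.80 to 2.09 in wild-type pools for Gapdh, and 3.87 to 4.34 in KO and 3.89 to 4.28 in wild-type pools for beta-actin; these ranges overlap.

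**Figure D2:**
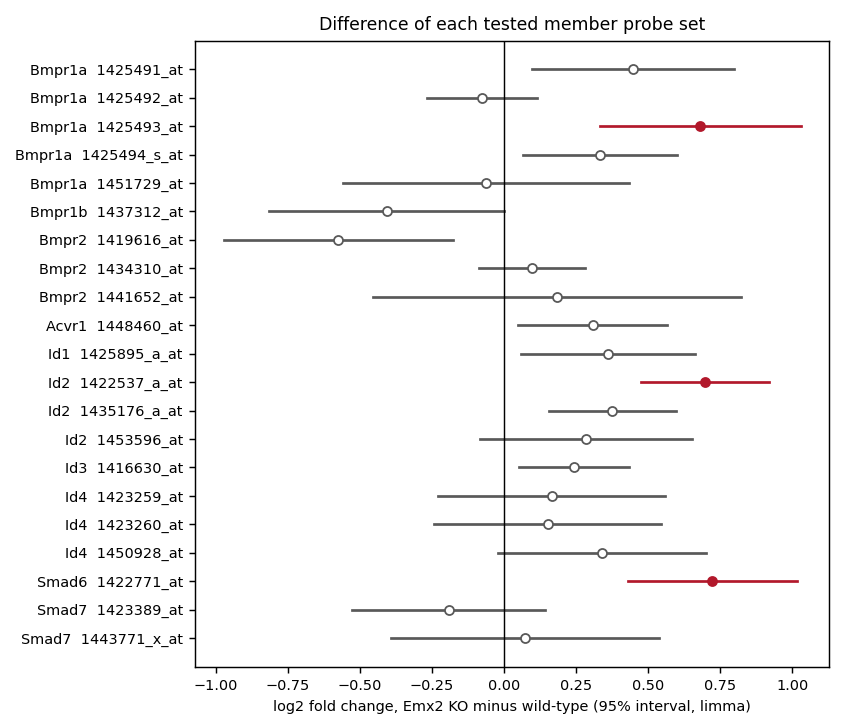
Log2 fold change (Emx2 KO minus wild-type) of the 21 tested member probe sets, with limma's 95% intervals; filled red points were called higher and open points were not called. Id2, Smad6 and 1 Bmpr1a probe set were called, and all 8 probe sets of the Id genes lie right of 0.

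Id2, which in many tissues holds progenitors undifferentiated, had the smallest p among the 10 genes. Its probe set 1422537_a_at read 1314, 1362 and 1455 in KO pools and 875, 824 and 847 in wild-type pools. The groups were far apart relative to their spread, with means of 1377 ± 72.0 in KO and 849 ± 25.5 in wild-type pools (SD, n = 3 each; log2 fold change 0.70, SE 0.10, limma adjusted p = 0.00157). The brighter Id2 probe set, 1435176_a_at, read 5161, 4593 and 5538 in KO and 4081, 3424 and 4311 in wild-type pools. Every KO pool was higher there too, yet this smaller difference narrowly missed the threshold (0.37, SE 0.10, 95% interval 0.15 to 0.59, adjusted p = 0.0565). The third probe set, 1453596_at, read 405, 436 and 420 in KO and 446, 277 and 333 in wild-type pools. Here wild-type replicate 1 stood above 2 of the 3 KO pools, and no call was made (0.28, SE 0.17, adjusted p = 0.440).

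The Id2 call at 1422537_a_at was made in all 16 alternatives, with log2 fold changes of 0.66 to 0.79 and adjusted p of 0.000992 to 0.0339. The brighter probe set was called in 6 of the 16, including the fit with the replicate number as a block (adjusted p = 0.0261). Within an array, the log2 ratio of 1422537_a_at to 1435176_a_at was −1.97 to −1.75 in KO and −2.35 to −2.05 in wild-type pools. The ratio of 1422537_a_at to 1453596_at was 1.64 to 1.79 in KO and 0.97 to 1.57 in wild-type pools. Neither pair of ranges overlapped, so the size of the Id2 difference depended on the probe set. These ratios were not tested.

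Id1, the Id gene with the best described BMP response element, had 1 probe set, 1425895_a_at, at 461, 408 and 406 in KO and 351, 297 and 347 in wild-type pools. All KO pools were higher, and the difference was not called (log2 fold change 0.36, SE 0.14, 95% interval 0.06 to 0.66, adjusted p = 0.193). Id3, which often moves with Id1, read 3492, 3917 and 4001 in KO and 3317, 3319 and 2997 in wild-type pools at its only probe set. These groups did not overlap either, and again no call was made (0.24, SE 0.09, 95% interval 0.05 to 0.43, adjusted p = 0.159).

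Id4, the family member with the most restricted expression, was read by 3 probe sets annotated to the same target sequence. The largest of its differences was at 1450928_at, with 296, 357 and 261 in KO and 259, 209 and 252 in wild-type pools (log2 fold change 0.34, SE 0.17, adjusted p = 0.325). The lowest KO pool there lay just above the highest wild-type pool. At 1423260_at the groups overlapped, with means of 283 ± 47.5 in KO and 256 ± 50.7 in wild-type pools (SD, n = 3 each; limma adjusted p = 0.746). They overlapped also at 1423259_at, with 144 ± 6.78 in KO and 129 ± 17.1 in wild-type pools (limma adjusted p = 0.717). Over the 4 Id genes, 1 of 8 probe sets was called higher and 0 lower in limma's fit (4 and 0 at an unadjusted p below 0.05), all 8 log2 fold changes were above 0 (0.15 to 0.70; 50.9% of all tested probe sets were above 0), and in 5 of 8 the KO pools lay above all wild-type pools (62.5%, against 12% of all tested probe sets).

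Smad6, the inhibitory Smad that acts mainly on BMP receptors, read 882, 1095 and 1015 in KO and 547, 708 and 563 in wild-type pools. The lowest KO pool stood well above the highest wild-type pool. The means were 997 ± 107 in KO and 606 ± 88.6 in wild-type pools (SD, n = 3 each; log2 fold change 0.72, SE 0.14, limma adjusted p = 0.00762). The call was held with any 1 pool left out and was lost with no filter on dim probe sets (adjusted p = 0.144) and without an intensity trend in the variance (adjusted p = 0.0757).

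Smad7, which dampens both BMP and TGF beta receptors, was not called at either of its probe sets. One of them, 1423389_at, read 212, 225 and 248 in KO and 288, 239 and 258 in wild-type pools. These groups overlapped, and the log2 fold change of −0.19 had a 95% interval of −0.53 to 0.14 (adjusted p = 0.587), which does not reach the 0.72 of Smad6; the difference between the genes was not tested. A further probe set, 1443771_x_at, whose suffix marks possible cross-hybridisation, read 80.7 to 98.6 in KO and 75.3 to 102 in wild-type pools (0.07, adjusted p = 0.905).

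Across the 21 tested probe sets, the KO pools lay above all wild-type pools in 10 (47.6%, against 12% of all tested probe sets) and below them in 2 (9.52%, against 10%). The 10 were spread over 7 genes (Bmpr1a, Acvr1, Id1, Id2, Id3, Id4 and Smad6), and the 2 were Bmpr1b 1437312_at and Bmpr2 1419616_at. The non-overlapping receptor probe sets thus went in both directions, 4 higher and 2 lower, and those of the Id genes and Smad6 in 1.

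**Figure D3:**
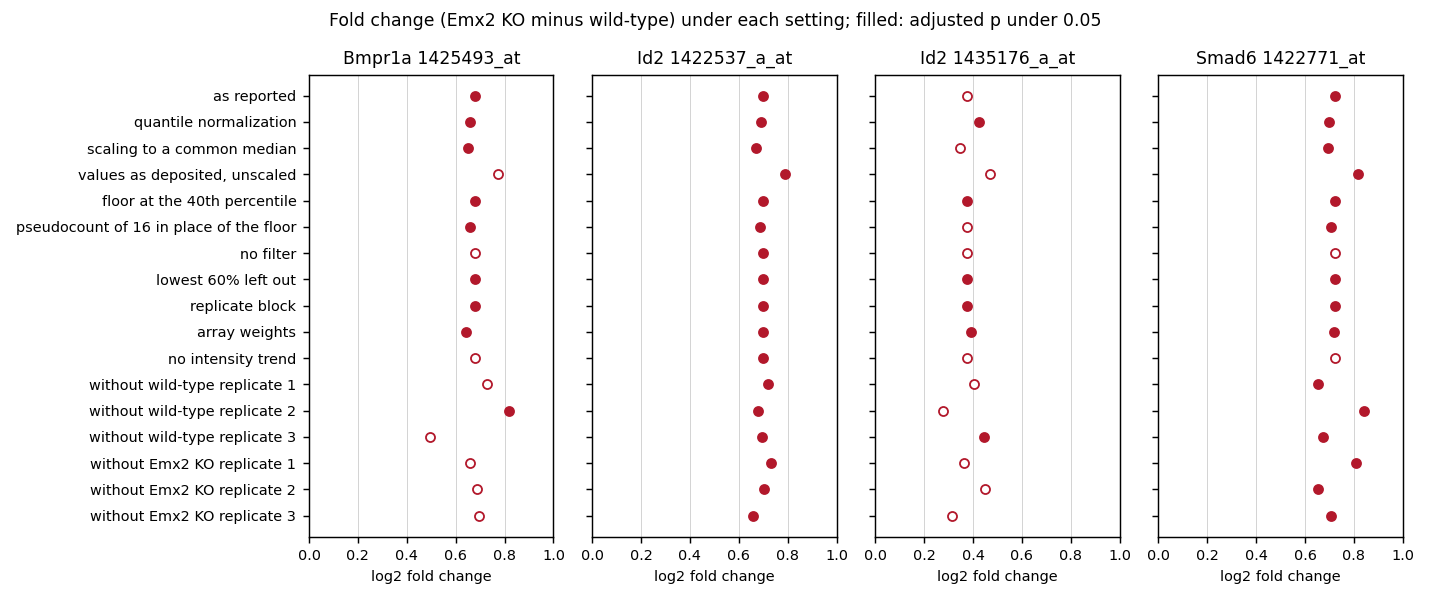
Log2 fold change (Emx2 KO minus wild-type) of 4 member probe sets under the reported setting and 16 alternatives, filled where the adjusted p was below 0.05. Id2 1422537_a_at is filled throughout, Smad6 in 14 of 16 alternatives, Bmpr1a 1425493_at in 8 and Id2 1435176_a_at in 6.

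The rest of the pathway was read from lists of genes, each gene by its brightest probe set. Of 57 tested pathway genes outside the 10, 13 were called (22.8%, against 5.41% of all 12315 genes read this way), 7 higher and 6 lower (2.93% and 2.48% of all genes), with a median log2 fold change of 0.06. With no filter on dim probe sets, Smad1 and Bmp4 alone of these 13 kept their call. Bmp4 kept it in all 16 alternatives, and Smad1 lost it on unscaled values and without an intensity trend. Bmper, Zeb2, Tbx2 and Gata2 lost their calls only with no filter. Among 9 tested co-receptors, decoys and other receptors, 1 was called higher and 0 lower in limma's fit (3 and 0 at an unadjusted p below 0.05). That gene was Bambi, a receptor-like decoy that itself responds to BMP, with 2828 ± 203 in KO and 2156 ± 66.8 in wild-type pools (SD, n = 3 each; log2 fold change 0.39, SE 0.09, limma adjusted p = 0.0247). Bambi kept its call in 8 of 16 alternatives and lost it without wild-type replicate 1 or 2 or KO replicate 1 or 3. Acvr2a, a type II receptor shared with activins, read 799, 895 and 1061 in KO and 739, 657 and 767 in wild-type pools and was not called (0.34, adjusted p = 0.184).

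Of 19 Smads and Smad regulators, 2 were called higher and 1 lower in limma's fit (3 and 1 at an unadjusted p below 0.05). Smad1, a direct substrate of BMP type I receptors, read 1803, 1817 and 1777 in KO and 1234, 1156 and 1271 in wild-type pools (log2 fold change 0.56, SE 0.09, adjusted p = 0.00388). A second Smad1 probe set was called as well (0.58, adjusted p = 0.0225), and the last, a dim one, was not (0.24, adjusted p = 0.747). Smad5 and Smad4 were not called, at −0.19 (95% interval −0.39 to 0.02) and −0.04 (−0.20 to 0.12). Zeb2, a Smad-binding repressor of epithelial genes, averaged 1153 ± 144 in KO and 617 ± 89.8 in wild-type pools (SD, n = 3 each; 0.90, SE 0.14, limma adjusted p = 0.00195), and 3 of its 4 further probe sets were called higher. Tob1, an antiproliferative protein that binds BMP Smads and represses them in bone cells, averaged 317 ± 75.8 in KO and 583 ± 96.5 in wild-type pools (−0.89, SE 0.18, limma adjusted p = 0.0116), and without wild-type replicate 1, KO replicate 1 or KO replicate 2 this call was lost.

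Other genes known to respond to BMP went both ways, with a median log2 fold change of −0.49 and 2 of 9 tested above 0. Of the 9, 2 were called higher and 3 lower in limma's fit (2 and 5 at an unadjusted p below 0.05). Tbx2, a T-box repressor, read 59.1, 95.5 and 65.8 in KO and 361, 328 and 181 in wild-type pools (log2 fold change −1.95, SE 0.27, adjusted p = 0.00102). Gata2, a zinc finger factor of blood and urogenital tissue, read 227, 296 and 298 in KO and 696, 769 and 499 in wild-type pools (−1.25, SE 0.18, adjusted p = 0.00134), and a second Gata2 probe set was also called lower (−1.60, adjusted p = 0.000806). Hey1, a repressor shared by Notch and BMP signalling, averaged 505 ± 13.3 in KO and 900 ± 195 in wild-type pools (SD, n = 3 each; −0.81, limma adjusted p = 0.00913), a call lost without wild-type replicate 1. Atoh8, a helix-loop-helix factor, was the second higher gene beside Bambi and was dim, at 38.6, 95.1 and 57.0 in KO and 25.6, 18.1 and 25.8 in wild-type pools (1.38, SE 0.36, adjusted p = 0.0453), and passed in 7 of 15 alternatives. It was lost without wild-type replicate 1 or 2 or KO replicate 2 or 3. The homeobox genes Msx1 and Msx2 are classic BMP responders, chosen here after their values were seen. Both were lower in every KO pool than in every wild-type pool and were not called (−0.64, adjusted p = 0.113, and −0.49, adjusted p = 0.2001). Msx1 read 120 to 167 in KO and 181 to 274 in wild-type pools, and Msx2 86.6 to 106 in KO and 123 to 156 in wild-type pools.

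Among 6 tested partners of Id proteins, 0 were called in limma's fit, and 3 had an unadjusted p below 0.05 (Tcf4, Ets1 and Rb1). The E protein Tcf4, a helix-loop-helix factor that Id proteins bind, came nearest, with 2048, 1931 and 2283 in KO and 3111, 2758 and 2389 in wild-type pools (log2 fold change −0.39, SE 0.11, unadjusted p = 0.00353, adjusted p = 0.0641). Every KO pool was below every wild-type pool. Ets1, an ETS transcription factor, read 789, 818 and 774 in KO and 631, 635 and 584 in wild-type pools (0.36, unadjusted p = 0.00643, adjusted p = 0.0936). The E proteins Tcf3 and Tcf12 gave adjusted p of 0.884 and 0.757.

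Of 15 tested ligands and antagonists, 3 were called higher (Bmper, 1.59; Bmp5, 0.98; and Bmp4, 0.79, the last named after its values were seen) and 2 lower (Bmp2, −1.84, and Bmp7, −0.87), all as log2 fold changes of the brightest probe set, with adjusted p of 9.67e-05, 0.00594, 0.00221, 0.00790 and 0.0324 in that order. At an unadjusted limma p below 0.05, 6 of the 15 were higher and 2 lower, and 12 of the 15 log2 fold changes were above 0. Further probe sets of Bmp5 and Bmp7 were dimmer and not called, and the Bmp7 call was lost without wild-type replicate 1 or 3 or KO replicate 1 or 2.

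**Figure D4:**
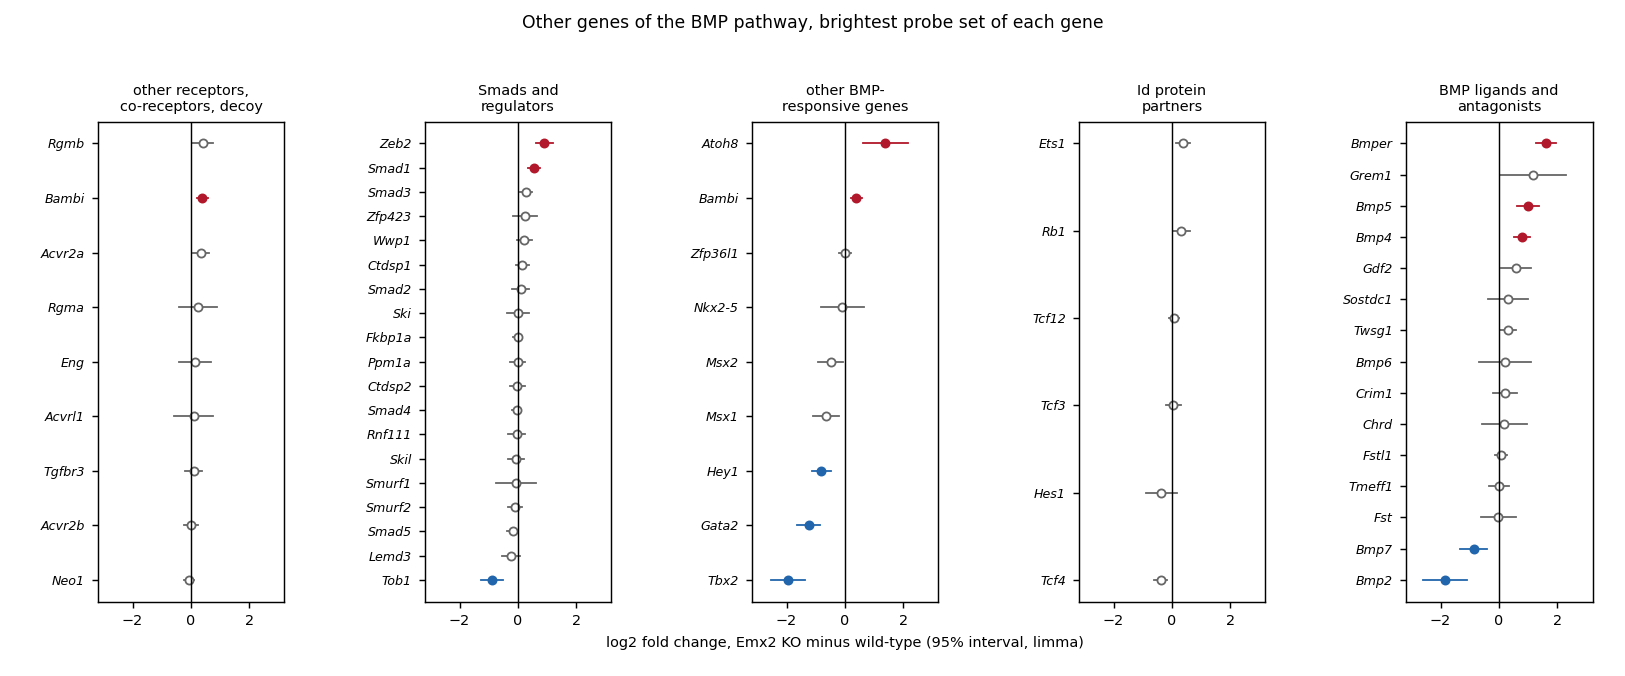
Log2 fold change (Emx2 KO minus wild-type, 95% interval) of the tested genes of 5 BMP pathway lists, each at its brightest probe set; red points were called higher, blue points lower and open points not called. Called genes lie on both sides of 0 among Smad regulators, BMP-responsive genes and ligands, and none is called among Id partners.

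By Pearson correlation of log2 intensity over the 6 arrays, the named genes with the pattern most like Id2 1422537_a_at were Lox (r = 0.998), Ptn (0.996), Eif4g3 (0.994), Tspan5 (0.994) and Stox2 (0.994). Lox, a collagen cross-linking enzyme, averaged 198 ± 25.0 in KO and 71.4 ± 5.45 in wild-type pools (SD, n = 3 each), and the growth factor gene Ptn averaged 2718 ± 112 in KO and 1768 ± 24.2 in wild-type pools. The 6 arrays share the 2 genotypes, so any probe set that separates them closely ranks high, and of the 5 Lox, Ptn and Stox2 were called while Eif4g3 and Tspan5 were not.

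Markers of other cells differed between the same pools. Of 11 tested mesenchymal markers 7 were called higher and 1 lower. The summed intensity of all 12 mesenchymal markers, tested or not, was 16880 to 17973 in KO and 11899 to 12816 in wild-type pools. Of 10 tested endothelial markers 4 were higher and 0 lower in limma's fit (6 and 0 at an unadjusted p below 0.05). The 4 were Emcn (log2 fold change 1.39), Tek (1.29), Cldn5 (0.85) and Egfl7 (0.51), and all 10 tested log2 fold changes were above 0. All 12 endothelial markers, tested or not, summed to 1712 to 1996 in KO and 1026 to 1410 in wild-type pools. Pecam1 and Tie1, which define endothelium, were too dim to test. Cdh5 was not called and read 62.5 to 72.2 in KO and 40.9 to 52.9 in wild-type pools. Of 5 germ cell markers 3 were lower and 0 higher in limma's fit (4 and 0 at an unadjusted p below 0.05), with sums of 781 to 1027 in KO and 1280 to 1741 in wild-type pools. Of 2 tested nephric duct markers 1 was lower and 0 higher in limma's fit (2 and 0 at an unadjusted p below 0.05). The 6 annotated nephric duct markers, most of them too dim to test, summed to 80.5 to 158 in KO and 240 to 281 in wild-type pools. Of 4 tested markers of neural crest and glia 1 was lower, and of 4 of muscle and heart 2 were higher and 1 was lower. The tested markers of erythroid cells gave 0 calls of 4 in limma's fit, with 1 at an unadjusted p below 0.05. Id and Smad6 transcripts occur in mesenchyme and endothelium as well as in epithelium, and the part of these cells in the Id2 and Smad6 differences was not tested.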

How the data were processed

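Epithelium of the E10.5 gonadal primordium was profiled on 6 one-colour arrays of 45101 probe sets, 3 from Emx2 KO and 3 from wild-type pools. The values used are linear intensities deposited by the authors, 1 per probe set and array. The submitters' processing notes name GCOS 1.2; no algorithm or scaling target is given in the sources used here.

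The arrays' 2% trimmed means differed by up to 1.47 times, beyond a limit of 5%, so every array was brought to a trimmed mean of 309.2. A floor at the 20th percentile (7.99) was applied before log2. After removal of 64 controls and of the dimmest 40% by mean (under 26.4), 27022 probe sets were tested with limma 3.58.1 in R 4.3.3 (eBayes with an intensity trend, two-sided, Benjamini-Hochberg, threshold 0.05). Differences near the floor are compressed. Precision is limited by 3 arrays per group; the p-values cover variation among pools, which the labels do not tie to separate litters. Names came from the platform annotation (34958 probe sets with 1 symbol, 932 with several, 9211 with none) and upstream sequences from RefSeq by symbol.

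The text names every probe set of the 10 genes; of each pathway list up to 4 called genes of greatest change, filled to 2 by p; the sex-linked genes; and the 5 genes most correlated with the member probe set of smallest p. Lists of cell markers are given by counts, and Smad4, Smad5, Rb1, Tcf3 and Tcf12 were named after their values were seen. So were the markers Wt1, Gata4, Upk3b, Krt18, Upk1b, Krt19, Lrrn4, Bnc1, Krt8, Msln, Cdh5, Pecam1, Tie1, Emcn, Tek, Cldn5 and Egfl7. The genes and lists were chosen with earlier results of these data known. Alternatives were 3 other scalings, 2 other floors, 2 other filters, a replicate block, array weights, a variance model without trend, each pool left out and, for the lists, the probe set of smallest p per gene. The procedure was tested on simulated arrays. The labels state no pairing of the pools by replicate number. Deviations of same-numbered pools correlated at −0.07, 0.04 and −0.05, which with 3 pools per group cannot exclude a pairing.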

Additional observations from a re-analysis of the deposited data

How the results depend on the processing

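Counts of calls depended on the filter, on the variance model and on single pools. With no filter on dim probe sets, 151 probe sets were called in all, 1 of them a member (Id2), and 3 pathway genes; without an intensity trend the counts were 541, 1 (Id2 again) and 6. Values as deposited and unscaled gave 8 pathway genes. With each pool left out in turn, the counts ran from 721 to 1687 over all probe sets, from 2 to 3 for the members and from 8 to 14 for the pathway genes, against 1264, 3 and 13 as reported. Leaving out wild-type replicate 1 gave 721 and 8 for the first and last of these, and leaving out KO replicate 1, 2 or 3 gave overall counts of 815, 834 or 790. The replicate block gave 1160, 4 and 12; it added the Id2 probe set 1435176_a_at and changed no other member's call. Of 3 same-numbered pairs 0 had a correlation of deviations over 0.1, which cannot exclude a pairing that the labels do not state.

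Directions turned only at probe sets that were not called. On unscaled values Bmpr1a 1425492_at was 0.016 and 1451729_at was 0.031. With each pool left out, 1451729_at ran from −0.29 to 0.088, being 0.036 without wild-type replicate 3, 0.020 without KO replicate 1 and 0.088 without KO replicate 2. Bmpr2 1441652_at ran from −0.041 (without wild-type replicate 1) to 0.53, and Smad7 1443771_x_at from −0.022 (without wild-type replicate 2) to 0.20. The other 17 tested member probe sets kept their direction in each alternative in which they were tested. The cause of these changes was not tested. For Bmpr1b and Acvr1, 2 of 3 probe sets of each were too dim to test. Each result therefore rests on 1 probe set, at 103 to 176 for Bmpr1b and at 797 to 1116 for Acvr1.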
